A study of Homo sapiens with 54 samples.

Results

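Apoptosis, a form of programmed cell death, was followed here through the transcripts of 10 genes that set how readily a cell enters it. They were BCL2L1, MCL1, BAX, BBC3, PMAIP1, BCL2L11, TNFRSF10B, BIRC2, BIRC3 and XIAP, taken by symbol from the 27978 genes of the count table, and all 10 were tested in each of 40 comparisons. The libraries came from MDA-MB-231, an established human breast cancer cell line, and numbered 54 in 18 groups of 3 replicates that the submitters call biological. In batch 1, at 24 and at 48 h, cells were untreated, given Compound Kushen Injection (CKI, an extract of medicinal plants) at 2 mg/ml, or given 1 of 4 mixtures at the matching dose. N-OmtOspc was CKI without oxymatrine (Omt) and oxysophocarpine (Ospc), and N-MacOmtOspc also lacked macrozamin (Mac). OmtOspc held only oxymatrine and oxysophocarpine, and MacOmtOspc only these and macrozamin. In batch 2, at 48 h only, untreated and CKI cells stood beside CKI lacking macrozamin (N-Mac), N-methylcytisine (N-Nme), oxymatrine (N-Omt) or trifolirhizin (N-Tri). All treated groups of both batches are labelled 2 mg. The untreated cells are described only as untreated, no group carried a genetic change, and all groups came from this 1 line.

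In the mitochondrial pathway, proteins of the BCL2 family decide whether the outer mitochondrial membrane is breached. BH3-only proteins such as BBC3 (PUMA), PMAIP1 (NOXA) and BCL2L11 (BIM) bind and neutralise pro-survival members such as BCL2L1 (BCL-XL) and MCL1, and effectors such as BAX then form pores that release cytochrome c. In the extrinsic pathway the ligand TRAIL engages death receptors, among them TNFRSF10B (DR5). The inhibitors of apoptosis (IAPs) act further down: XIAP binds caspases directly, whereas BIRC2 (cIAP1) and BIRC3 (cIAP2) are ubiquitin ligases of TNF receptor signalling, and BIRC3 is a well known target gene of NF-kappa-B. Much of this control is exerted on proteins, which RNA counts do not show.

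Total counts per library were between 17673537 and 26138924, and the least counted member had at least 204 reads in every library. The line's markers fitted its label in part. VIM lay between 488 and 1570 CPM (counts scaled to a library total adjusted by the trimmed mean of M-values), ESR1 and PGR did not exceed 0.333, and the leukocyte markers PTPRC and CD3E reached at most 0.624 and 0.25. GATA3 (5.18 to 45.6), EPCAM (6.19 to 27.6) and ERBB3 (3.81 to 18), listed as low or absent in the line, were detected at low levels. So were COL1A1 (8.87 to 65.2) and COL1A2 (0.663 to 44.6) of the fibroblast list, whereas DCN and PDGFRA of that list reached at most 0.723 and 0.757. Whether the detected genes moved with the results was not tested. Of the batch 1 libraries, 3 at 24 h stood apart. Over 1106 genes that differed more than 2-fold between the untreated cells of the batches, CKI replicate 1, N-MacOmtOspc replicate 2 and OmtOspc replicate 2 deviated from their own groups towards batch 2, with slopes of 0.557 to 0.624 against -0.384 to 0.0859 in the other 33. These are the libraries whose columns carry no replicate number. N-OmtOspc replicate 3 at 24 h and N-MacOmtOspc replicate 2 at 48 h also lay away from their groups, for PMAIP1 at 170.3, 159 and 236 CPM and at 219.6, 163 and 224 CPM in replicates 1 to 3. For most single results that include them the value without the library is given too, and where no remark is made the call was the same. In such bulk RNA, fewer cells of a kind and less RNA per cell cannot be told apart.

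Most of the 10 genes responded to most treatments at 48 h, and they did so in opposite directions. At 24 h, 4 of 10 were called in CKI-treated against untreated cells (adjusted p under 0.05 in edgeR's quasi-likelihood test, Benjamini-Hochberg adjustment over all genes), beside 38.7% of all genes tested. The 4 were 2 higher and 2 lower (background 19.3% each way). At 48 h, 8 of 10 were called with both batches in 1 fit, 2 higher and 6 lower, beside 71.5% of all genes, of which 35.7% were higher and 35.8% lower. Against untreated cells over all 5 treatments of a time and batch, 20 of 50 gene and treatment pairs were called at 24 h (background 40.8%), 43 of 50 at 48 h in batch 1 (67.3%) and 41 of 50 in batch 2 (72.9%). The members' count was thus near the background at 24 h and, with both batches in 1 fit, with CKI. Over the 48 h treatments of batch 1 the count was above the background. The members were chosen with earlier results of these data known, and treatments of a time and batch share their untreated libraries. No conclusion about the members is therefore drawn from these counts. By treatment, the calls at 24 h were 8 with N-OmtOspc (background 66.8%), 4 with N-MacOmtOspc (45.9%) and 4 with MacOmtOspc (35.8%). OmtOspc had 0 calls at 24 h by edgeR (16.5%), with 5 at an unadjusted p under 0.05 and 1 by DESeq2. Its replicates 1 and 2 lay far apart, and 6 genes were called without replicate 1 and 3 other genes without replicate 2. At 48 h the calls in batch 1 were 9 with CKI (62.5%), 9 with N-OmtOspc (80.4%), 7 with N-MacOmtOspc (64.7%), 9 with OmtOspc (67.8%) and 9 with MacOmtOspc (60.5%). In batch 2 they were 9 with CKI (68.4%), 7 with N-Mac (72.6%), 9 with N-Nme (69.5%), 7 with N-Omt (79.6%) and 9 with N-Tri (74.3%). Of the 256 calls made in all 400 pairs of gene and comparison, 210 stayed under each omission of a single library. These pairs pool comparisons with unlike backgrounds, such as 0% (MacOmtOspc against OmtOspc, 24 h) and 80.4% (N-OmtOspc against untreated cells, 48 h). The count therefore describes only how the calls held. The median log2 fold change of the members with CKI was -0.25 at 24 h and -0.28 at 48 h, against 0.01 and 0.00 over all genes tested.

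**Figure D1:**
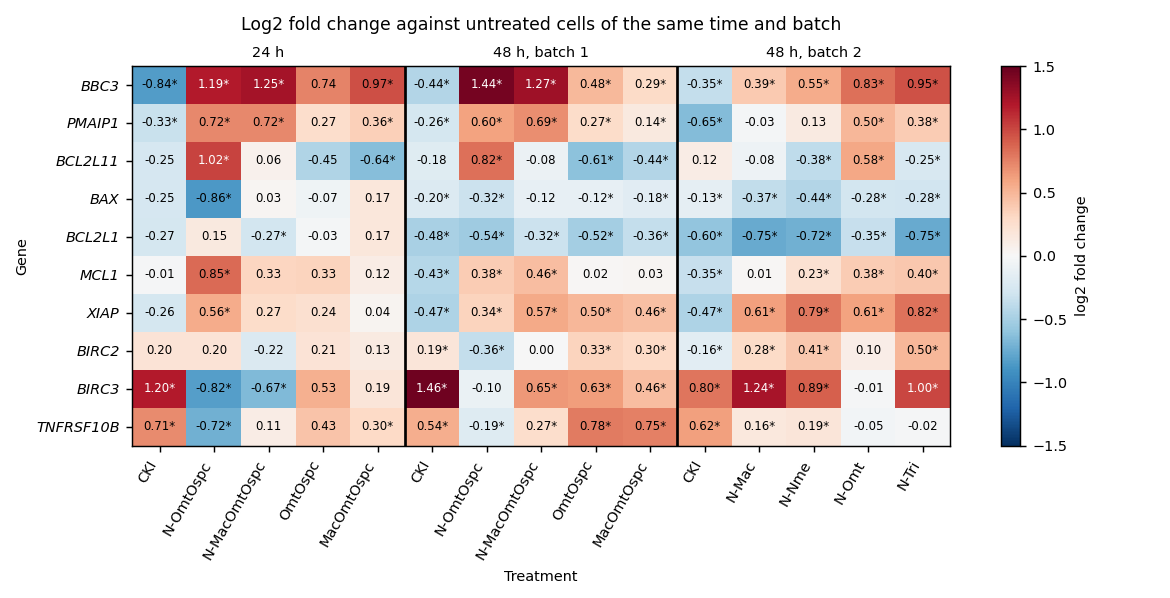
Fitted log2 fold change of each of the 10 genes (rows) against untreated cells in the 15 treated groups (columns, by time and batch), with an asterisk where edgeR's adjusted p was under 0.05. The CKI columns are blue for BBC3, PMAIP1 and XIAP and red for BIRC3 and TNFRSF10B, while BBC3 is red in the other 12 columns, from 0.29 to 1.44.

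BBC3, which encodes the BH3-only protein PUMA, was lower with CKI and, at 48 h, higher with each of the 8 mixtures. Untreated cells had 25.2, 22.6 and 21.5 CPM at 24 h and CKI-treated cells 10.2, 13.5 and 14.99, so that the groups did not overlap. The log2 fold change was -0.84 ± 0.15 (SE; edgeR adjusted p = 0.00388), and -0.70 without CKI replicate 1. At 48 h the values were 24.5, 30.8 and 32.9 untreated and 23.98, 19.01 and 21.5 with CKI in batch 1, and 20.1, 16.6 and 23.5 against 15.8, 14.7 and 16.1 in batch 2. In both batches every CKI library lay below every untreated one. The fit over both batches gave -0.40 ± 0.09 (SE; edgeR adjusted p = 5.30e-04). In the mixtures without oxymatrine and oxysophocarpine the gene was at 82.4, 74.4 and 80.96 CPM (N-OmtOspc) and 70.9, 65.6 and 74.3 CPM (N-MacOmtOspc) at 48 h, above all untreated libraries. These correspond to log2 fold changes against untreated cells of 1.44 ± 0.09 (SE; edgeR adjusted p = 5.29e-13) and 1.27 ± 0.12 (SE; edgeR adjusted p = 4.37e-06), the latter 1.31 without N-MacOmtOspc replicate 2. OmtOspc and MacOmtOspc, the mixtures of the removed compounds alone, gave 0.48 and 0.29 beside the same untreated libraries. The MacOmtOspc call was lost without untreated replicate 1 (0.16) or MacOmtOspc replicate 2 (0.19). At 24 h the 3 OmtOspc libraries spread from 23.6 to 56.4 CPM, and their difference of 0.74 was not called (adjusted p = 0.0973 in edgeR), except without OmtOspc replicate 2 (0.998). In batch 2, all 4 single removals were above untreated cells, by 0.39 (N-Mac), 0.55 (N-Nme), 0.83 (N-Omt) and 0.95 (N-Tri), each called.

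Read directly against CKI, BBC3 was 3.69-fold higher with N-OmtOspc (1.89 ± 0.07 SE, edgeR adjusted p = 1.42e-15) and 3.30-fold higher with N-MacOmtOspc at 48 h. With N-Tri it was 2.49-fold and with N-Mac 1.69-fold higher than with CKI of batch 2. These comparisons share the CKI libraries of their batch. At 24 h the difference between OmtOspc and CKI was 1.58 ± 0.31 (SE; edgeR adjusted p = 0.0458), a call lost without CKI replicate 1 (1.44), CKI replicate 2 (1.61), CKI replicate 3 (1.70), OmtOspc replicate 1 (1.21) or OmtOspc replicate 3 (1.63).

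PMAIP1, the gene of NOXA, the BH3-only protein that pairs most readily with MCL1, was likewise lowest with CKI at each time and in each batch, over a narrower range. At 24 h it was at 109, 119.8 and 118 CPM in untreated and 78.2, 99.99 and 97.9 in CKI-treated cells, without overlap. Its log2 fold change of -0.33 ± 0.11 (SE; edgeR adjusted p = 0.0433) was lost without untreated replicate 1 (-0.37), untreated replicate 2 (-0.30), untreated replicate 3 (-0.31) or CKI replicate 2 (-0.39), and without CKI replicate 1 it was -0.23, still called. At 48 h it was at 131, 129 and 119 CPM untreated and 109, 102 and 102 with CKI in batch 1, and at 141, 138 and 151 against 89.01, 93.4 and 88.5 in batch 2. CKI libraries were below untreated ones in both batches, with log2 fold changes of -0.26 ± 0.06 (SE; edgeR adjusted p = 6.03e-04) and -0.65 ± 0.04 (SE; edgeR adjusted p = 5.05e-08). The decrease was larger in batch 2, and the difference between the batches was itself called, at -0.38 ± 0.07 (SE; edgeR adjusted p = 0.00121). N-OmtOspc and N-MacOmtOspc raised PMAIP1 by 0.72 and 0.72 at 24 h and by 0.60 and 0.69 at 48 h, all called. With single libraries left out, N-OmtOspc ranged from 0.55 to 0.85 at the first time and from 0.55 to 0.62 at the second, and N-MacOmtOspc from 0.66 to 0.80 and from 0.61 to 0.82. Among single removals in batch 2, N-Omt (189.8, 205 and 207 CPM) and N-Tri (187, 180.3 and 191 CPM) were above all untreated libraries. N-Mac (141, 135 and 143 CPM) overlapped them, with a log2 fold change of -0.03 and a 95% interval of -0.14 to 0.09. N-Nme was not called either (0.13), but was without untreated replicate 3 (0.16) or N-Nme replicate 1 (0.15). All 4 were nevertheless above CKI, by 0.64 (N-Mac) to 1.16 (N-Omt).

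The promoters of BBC3 and PMAIP1 are shown because both genes were lowest with CKI at each time and in each batch. By group mean the same held for XIAP and MCL1. The XIAP window is printed further below and held none of the motifs sought. The 250 bases before the start site were taken from RefSeq on GRCh38.p14, a build later than the hg19 of the counts, which matched 8 of the 10 members (MCL1 and TNFRSF10B had no entry). The BBC3 window lies at chr19:47232668-47232917 on the minus strand, before a start that is not the outermost RefSeq start of BBC3. That of PMAIP1 lies at chr18:59899746-59899995 on the plus strand. Capitals mark motif matches on either strand. In BBC3 they are an E-box (CACGTG) 232 bases and an AP-1 motif (TGANTCA) 113 bases before the start, and in PMAIP1 a kappa-B motif 156 bases before it.
BBC3: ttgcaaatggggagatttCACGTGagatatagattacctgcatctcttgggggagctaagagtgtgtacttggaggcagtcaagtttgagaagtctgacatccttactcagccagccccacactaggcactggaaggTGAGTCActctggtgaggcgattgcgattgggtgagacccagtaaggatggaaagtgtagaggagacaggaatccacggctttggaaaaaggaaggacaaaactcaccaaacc
PMAIP1: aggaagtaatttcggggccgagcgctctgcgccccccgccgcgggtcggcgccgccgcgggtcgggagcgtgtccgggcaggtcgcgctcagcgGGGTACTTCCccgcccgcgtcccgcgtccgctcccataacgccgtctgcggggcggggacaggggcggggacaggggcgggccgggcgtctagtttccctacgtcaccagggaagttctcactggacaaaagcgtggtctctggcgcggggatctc
Of 27305 promoter windows of this length, 28.1% held a kappa-B match, 6.59% an AP-1 match, 6.48% an E-box, 3.19% a C/EBP-ATF motif (TGATGNAA) and 1.75% a cyclic AMP response element (TGACGTCA). The last 2 were in no member's window. A match is a description of these letters only.

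BCL2L11 (BIM) separated the mixtures in another way. Its highest levels came with N-OmtOspc in batch 1 and with N-Omt in batch 2, and its lowest in batch 1 with OmtOspc and MacOmtOspc. At 48 h in batch 1 it was at 19.8, 18.3 and 19.8 CPM untreated, 17.1, 16.4 and 17.1 with CKI and 35.7, 33.8 and 32.4 with N-OmtOspc, which did not overlap either. OmtOspc (12.3, 12.9 and 12.8 CPM) and MacOmtOspc (15.1, 13.8 and 13.9 CPM) lay below all untreated libraries. The log2 fold changes against untreated cells were 0.82 ± 0.08 (SE; edgeR adjusted p = 1.60e-09) for N-OmtOspc, -0.61 ± 0.08 (SE; edgeR adjusted p = 1.34e-06) for OmtOspc and -0.44 ± 0.08 (SE; edgeR adjusted p = 2.02e-04) for MacOmtOspc. At 24 h N-OmtOspc gave 1.02 ± 0.11 (SE; edgeR adjusted p = 5.79e-05), or 1.000 without its replicate 3, and MacOmtOspc -0.64 ± 0.09 (SE; edgeR adjusted p = 2.38e-04). OmtOspc at 24 h (-0.45) was called only without OmtOspc replicate 2 (-0.63). In batch 2 N-Omt was at 34.2, 36.01 and 37.99 CPM against 23.8, 27.8 and 20.99 in untreated cells, a log2 fold change of 0.58 ± 0.09 (SE; edgeR adjusted p = 2.05e-05). Removal of N-methylcytisine or trifolirhizin gave -0.38 and -0.25, both called. The N-Tri call was lost without untreated replicate 1 (-0.27), untreated replicate 2 (-0.14), N-Tri replicate 1 (-0.21) or N-Tri replicate 2 (-0.24). N-Mac was not called (-0.08), except without untreated replicate 3 (-0.18). Set against the mean of the other 3 removals, N-Omt was 1.76-fold higher (0.82 ± 0.06 SE, edgeR adjusted p = 2.65e-13).

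CKI itself was not called for BCL2L11, at -0.25 (24 h, 95% interval without adjustment over genes -0.65 to 0.14), -0.18 (48 h, batch 1, -0.34 to -0.02) and 0.12 (batch 2, -0.08 to 0.31). At 24 h CKI replicate 1 was at 20.8 CPM and the others at 14.7 and 13.7, and without replicate 1 the gene was called lower (-0.47). Without untreated replicate 2 of batch 2 it was called higher there (0.22). N-MacOmtOspc, which also lacks oxymatrine, was not called either (0.06 at 24 h and -0.08 at 48 h, or 0.18 and -0.04 without its replicate 2). The difference between N-OmtOspc and N-MacOmtOspc, which differ in macrozamin, was 0.95 ± 0.16 (SE; edgeR adjusted p = 0.00452) at 24 h and 0.91 ± 0.10 (SE; edgeR adjusted p = 1.07e-04) at 48 h. Without N-MacOmtOspc replicate 2 it was 0.82 at 24 h and 0.87 at 48 h, and without N-OmtOspc replicate 3 it was 0.90 at 24 h. With the mixtures of isolated compounds, MacOmtOspc against OmtOspc, it was 0.17 at 48 h (95% interval 0.00 to 0.34), and was not called.

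**Figure D2:**
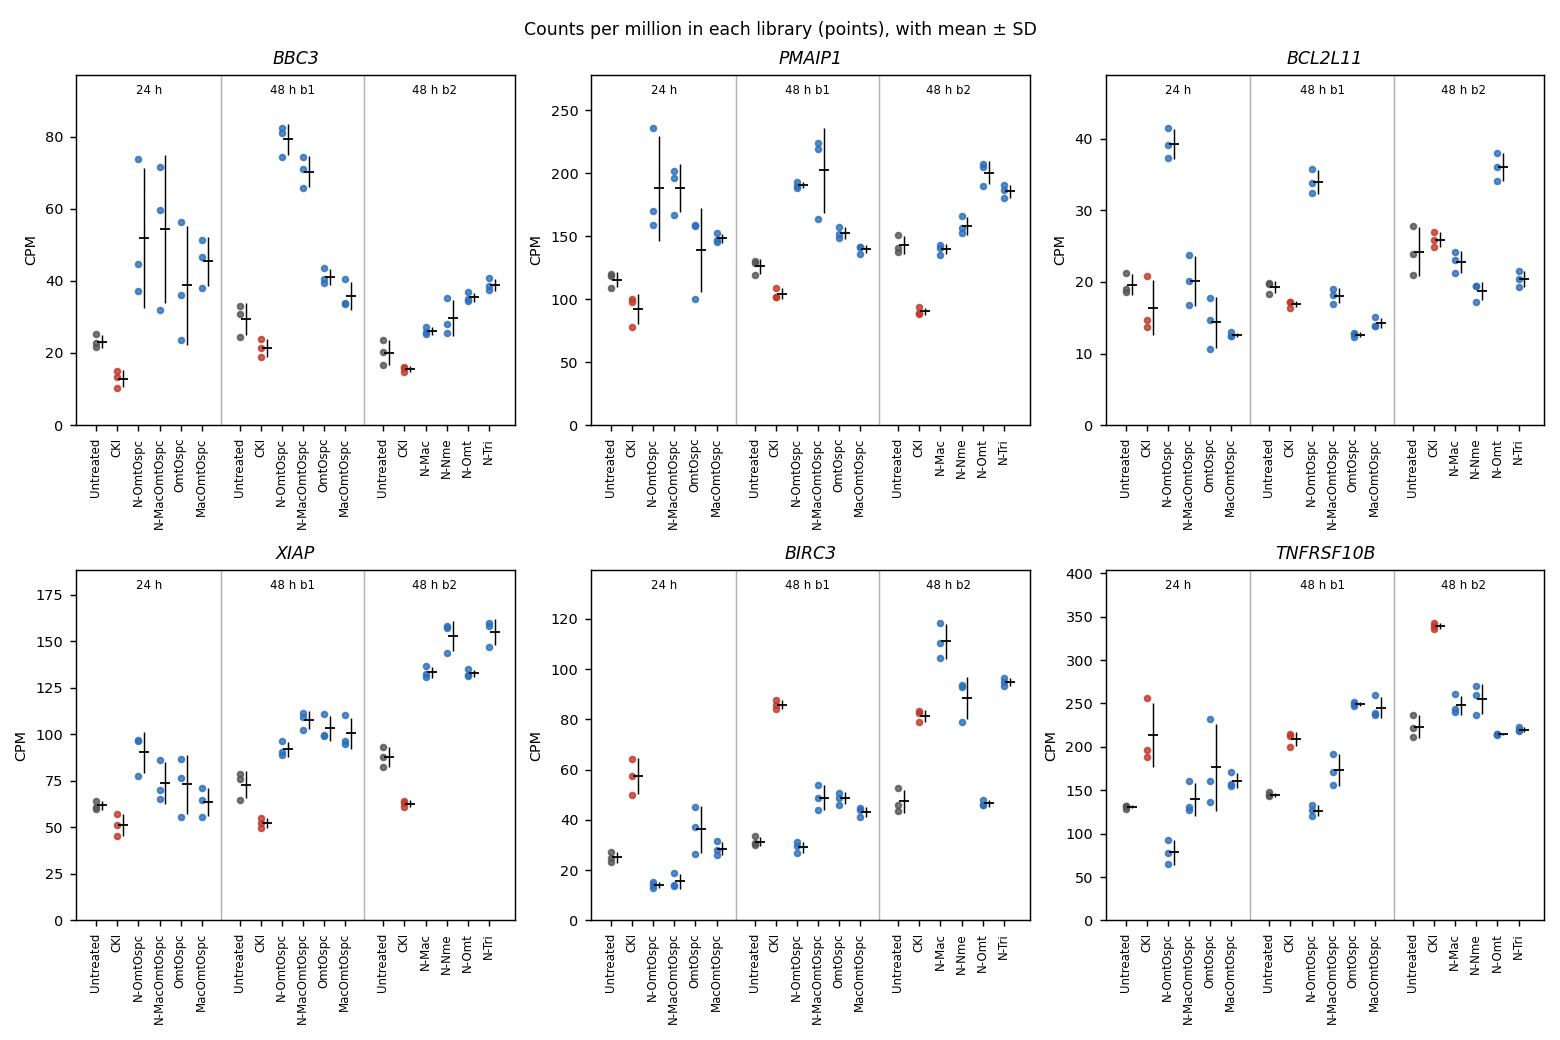
CPM of BBC3, PMAIP1, BCL2L11, XIAP, BIRC3 and TNFRSF10B in each of the 54 libraries (points; grey untreated, red CKI, blue mixtures), with mean ± SD of the 3 replicates of a group in black; panels run from 24 h over 48 h of batch 1 (b1) to 48 h of batch 2 (b2). XIAP is lowest with CKI in each part of its panel, and BCL2L11 is highest with N-OmtOspc in batch 1 and with N-Omt in batch 2.

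BAX, the pore-forming effector, changed little with CKI. At 48 h untreated cells had 174, 189.95 and 189.7 CPM in batch 1 and 129, 123 and 143 in batch 2, and CKI-treated cells 172, 153 and 153 in batch 1 and 121, 121 and 114 in batch 2. The groups did not overlap in either batch, but the margin was small, with log2 fold changes of -0.20 ± 0.06 (SE; edgeR adjusted p = 0.00753) and -0.13 ± 0.05 (SE; edgeR adjusted p = 0.0408). The first call was lost without CKI replicate 2 (-0.17). The second was lost without untreated replicate 1 (-0.15), untreated replicate 3 (-0.08), CKI replicate 1 (-0.14), CKI replicate 2 (-0.15) or CKI replicate 3 (-0.10). With both batches in 1 fit the value was -0.17 ± 0.05 (SE; edgeR adjusted p = 0.00334). Its largest change was with N-OmtOspc at 24 h, where the 3 libraries were at 90.4, 80.01 and 163 CPM against 225, 204 and 187 in untreated cells. That difference, -0.86 ± 0.25 (SE; edgeR adjusted p = 0.0137), rested on N-OmtOspc replicates 1 and 2: it was lost without N-OmtOspc replicate 1 (-0.72), and its leave-one-out range was -1.23 to -0.66. At 48 h the same mixture gave -0.32. Single removals gave -0.44 (N-Nme) to -0.28 (N-Omt) against untreated cells of batch 2, all 4 called.

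The pro-survival genes BCL2L1 and MCL1 both fell with CKI at 48 h but parted in the mixtures. BCL2L1 was at 486, 520.5 and 516 CPM untreated and 378, 353 and 351 with CKI in batch 1, and at 377, 379.7 and 382 against 254, 241 and 249.8 in batch 2. The groups were separate in both, with log2 fold changes of -0.48 ± 0.05 (SE; edgeR adjusted p = 4.96e-07) and -0.60 ± 0.04 (SE; edgeR adjusted p = 1.35e-08). At 48 h each of the 8 mixtures was also called lower than untreated cells, from -0.75 for N-Tri and -0.75 for N-Mac to -0.32 for N-MacOmtOspc. The last of these calls was lost without untreated replicate 1 (-0.36), untreated replicate 2 (-0.31), untreated replicate 3 (-0.31), N-MacOmtOspc replicate 1 (-0.21) or N-MacOmtOspc replicate 3 (-0.28), and was -0.48 to -0.21 over single omissions. N-Omt (310.01, 298 and 282 CPM) lay above every library of the other 3 removals (213 to 245 CPM), by 0.40 ± 0.04 (SE; edgeR adjusted p = 2.62e-09). At 24 h neither CKI (-0.27) nor N-OmtOspc (0.15), OmtOspc (-0.03) or MacOmtOspc (0.17) was called. CKI gave -0.11 without its replicate 1 and OmtOspc 0.08 without its replicate 2. N-OmtOspc was called without its replicate 3 (0.20) and MacOmtOspc without its replicate 3 (0.23). N-MacOmtOspc was called at 24 h (-0.27), a call lost without untreated replicate 1 (-0.27), untreated replicate 2 (-0.28), untreated replicate 3 (-0.30) or N-MacOmtOspc replicate 3 (-0.27) but not without N-MacOmtOspc replicate 2 (-0.23).

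MCL1, whose short-lived protein binds BIM and NOXA, fell with CKI at 48 h, again with no overlap. It went from 321, 301 and 297 to 225, 222 and 231 CPM in batch 1 and from 415, 389 and 435 to 326, 313 and 321 in batch 2. The log2 fold changes were -0.43 ± 0.05 (SE; edgeR adjusted p = 1.68e-06) and -0.35 ± 0.04 (SE; edgeR adjusted p = 8.76e-06). At 24 h CKI replicate 1 was at 349.8 CPM and the other replicates at 237 and 231, against 266, 275 and 289 in untreated cells. The value was -0.01 with replicate 1 and -0.24, then called, without it. With N-OmtOspc MCL1 rose to 524, 526 and 424 CPM at 24 h and 415, 391 and 391 at 48 h, by 0.85 ± 0.11 (SE; edgeR adjusted p = 2.15e-04) and 0.38 ± 0.06 (SE; edgeR adjusted p = 2.56e-06). The 24 h value was 0.97 without N-OmtOspc replicate 3. N-MacOmtOspc raised MCL1 by 0.46 at 48 h, and by 0.45 without its replicate 2. For OmtOspc and MacOmtOspc the 95% intervals at 48 h were -0.09 to 0.12 and -0.08 to 0.14, around 0.02 and 0.03. In batch 2 N-Nme, N-Omt and N-Tri raised it by 0.23, 0.38 and 0.40, and N-Mac left a difference of 0.01 (95% interval -0.11 to 0.14). In direct tests against CKI at 48 h, MCL1 was higher in all 8 mixtures and each was called, between 0.38 (N-Mac) and 0.91 (N-MacOmtOspc, 0.88 without its replicate 2), with CKI libraries shared within a batch.

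**Figure D3:**
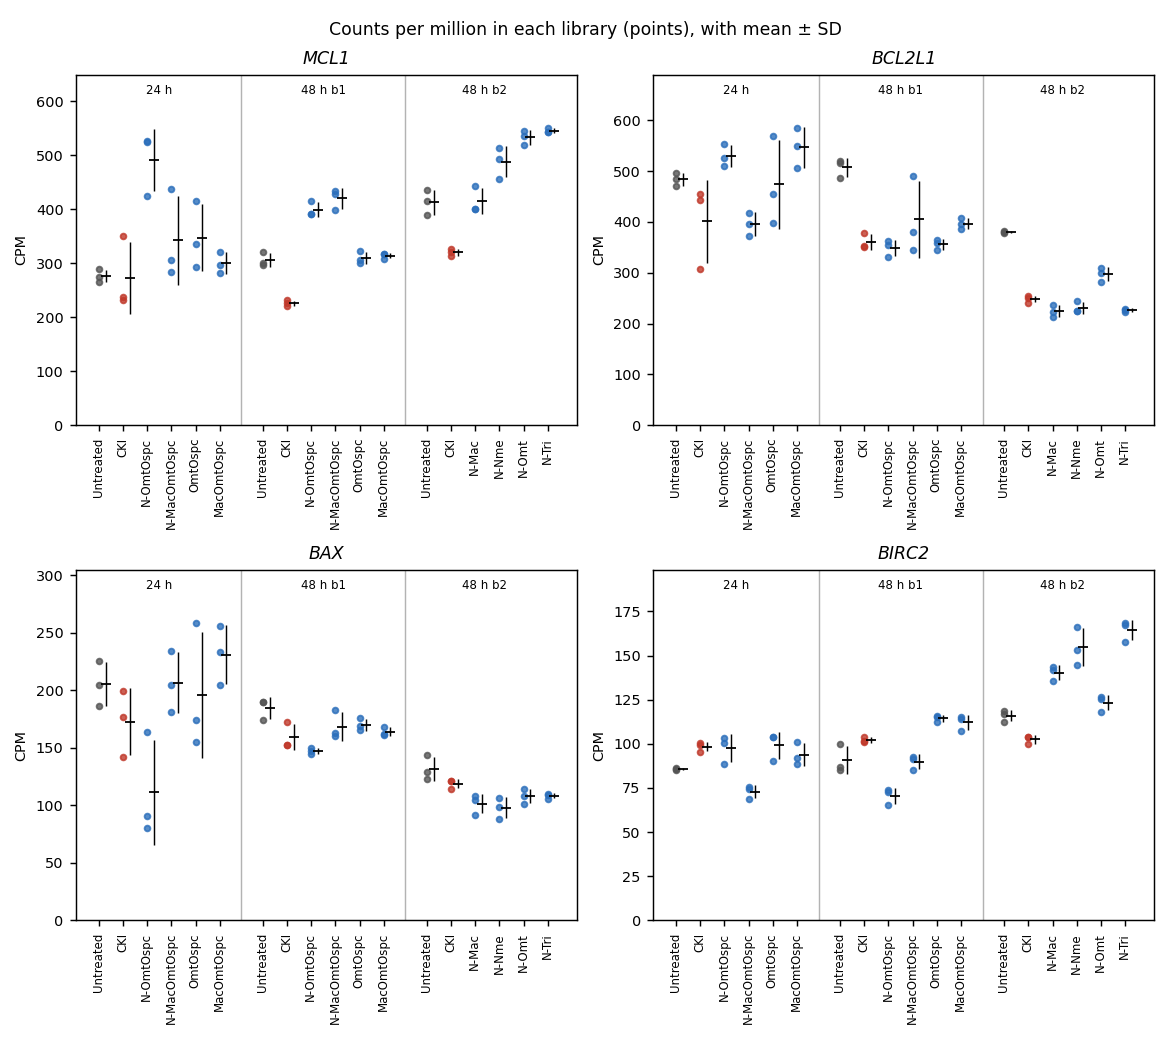
CPM of MCL1, BCL2L1, BAX and BIRC2 in each of the 54 libraries (points; grey untreated, red CKI, blue mixtures), with mean ± SD of the 3 replicates in black, for 24 h, 48 h of batch 1 (b1) and 48 h of batch 2 (b2). MCL1 is lowest with CKI in both 48 h parts (222 to 231 and 313 to 326 CPM), whereas BCL2L1 is below untreated cells in every treated group at 48 h, apart from N-MacOmtOspc replicate 2 at 491 CPM, which lies above the lowest untreated library.

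TNFRSF10B, the TRAIL receptor DR5, rose with CKI in all 3 settings. Its level was 129, 132 and 132 CPM untreated against 256, 197 and 189 with CKI at 24 h, 147, 143 and 144 against 199.95, 215 and 213 at 48 h in batch 1, and 222, 211 and 237 against 339, 342 and 335 in batch 2. CKI libraries were above untreated ones throughout. The log2 fold changes were 0.71 ± 0.13 (SE; edgeR adjusted p = 0.00383), 0.54 ± 0.05 (SE; edgeR adjusted p = 8.65e-08) and 0.62 ± 0.04 (SE; edgeR adjusted p = 4.39e-08). At 24 h CKI replicate 1 was the highest, and without it the value was 0.55, still called. By group mean, the order of CKI and the mixtures of isolated compounds was not the same at both times. At 24 h OmtOspc was at 136, 232 and 161 and MacOmtOspc at 155, 157 and 171 CPM, and both means were below that of CKI. Against untreated cells OmtOspc was not called (0.43, or 0.18 without its replicate 2), except without OmtOspc replicate 1 (0.59), and MacOmtOspc was called at 0.30. Against CKI at 24 h OmtOspc stood at -0.29 (95% interval -0.79 to 0.22) and MacOmtOspc at -0.42 (-0.71 to -0.12). Neither was called, but MacOmtOspc was called lower than CKI without CKI replicate 1 (-0.26) or CKI replicate 3 (-0.50). At 48 h OmtOspc and MacOmtOspc were instead above CKI, at 247, 249 and 251 and 259, 239 and 237 CPM, with values against untreated cells of 0.78 ± 0.05 (SE; edgeR adjusted p = 2.16e-11) and 0.75 ± 0.05 (SE; edgeR adjusted p = 6.92e-09). Compared with CKI directly they were 0.25 and 0.22 higher at 48 h, both called. N-OmtOspc went the other way, to 77.4, 64.8 and 92.99 CPM at 24 h and 120.03, 133 and 127 at 48 h. The corresponding values were -0.72 ± 0.14 (SE; edgeR adjusted p = 0.00159) and -0.19 ± 0.06 (SE; edgeR adjusted p = 0.00637), the first -0.84 without N-OmtOspc replicate 3. N-MacOmtOspc was called higher than untreated cells at 48 h (0.27), but the call was lost without untreated replicate 1 (0.27), untreated replicate 2 (0.25), untreated replicate 3 (0.26), N-MacOmtOspc replicate 1 (0.19) or N-MacOmtOspc replicate 3 (0.27). In batch 2 N-Omt (-0.05, 95% interval -0.15 to 0.05) and N-Tri (-0.02, -0.12 to 0.07) were near untreated cells, and they lay 1.57-fold and 1.55-fold below CKI. N-Mac and N-Nme were called at 0.16 and 0.19. The N-Mac call was lost without untreated replicate 1 (0.15), untreated replicate 2 (0.11) or N-Mac replicate 2 (0.12). That of N-Nme was lost without untreated replicate 1 (0.18), untreated replicate 2 (0.15), N-Nme replicate 1 (0.14) or N-Nme replicate 2 (0.17).

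Among the IAPs, BIRC3 rose with CKI at both times, and XIAP fell at 48 h. BIRC3 went from 23.1, 24.8 and 27.3 to 64.3, 57.7 and 49.99 CPM at 24 h, from 33.4, 29.9 and 30.7 to 84.1, 87.7 and 85.8 at 48 h in batch 1, and from 45.98, 52.7 and 43.5 to 82.4, 78.9 and 83.3 in batch 2. No CKI library overlapped an untreated one. These were the largest changes of any member with CKI, at 1.20 ± 0.12 (SE; edgeR adjusted p = 4.14e-04), 1.46 ± 0.06 (SE; edgeR adjusted p = 1.04e-12) and 0.80 ± 0.06 (SE; edgeR adjusted p = 2.10e-07). Without CKI replicate 1 the 24 h value was 1.10. The increase was smaller in batch 2, and the batch 2 value minus that of batch 1 was -0.66 ± 0.09 (SE; edgeR adjusted p = 5.59e-05). Treatment with N-OmtOspc or N-MacOmtOspc lowered BIRC3 at 24 h, to 13.9, 15.2 and 13.02 and 14.2, 19.03 and 13.6 CPM, with log2 fold changes of -0.82 ± 0.12 (SE; edgeR adjusted p = 3.18e-04) and -0.67 ± 0.15 (SE; edgeR adjusted p = 0.0109). They were -0.75 without N-OmtOspc replicate 3 and -0.84 without N-MacOmtOspc replicate 2. At 48 h N-OmtOspc stood at -0.10 (95% interval -0.27 to 0.06) and N-MacOmtOspc was higher than untreated cells, by 0.65 ± 0.11 (SE; edgeR adjusted p = 2.51e-04), or 0.72 without its replicate 2. OmtOspc and MacOmtOspc gave 0.63 and 0.46 at 48 h, both called and both below CKI, with differences of -0.82 and -0.999 on the log2 scale. In batch 2 the highest levels came with N-Mac (104, 118 and 111 CPM), above CKI by 0.45 ± 0.05 (SE; edgeR adjusted p = 1.25e-09). N-Omt was at 45.9, 48.1 and 45.8 CPM, overlapping the untreated libraries (-0.01, 95% interval -0.16 to 0.13). It was 2.08-fold below the mean of the other 3 removals (-1.06 ± 0.05 SE, edgeR adjusted p = 1.28e-16). N-Nme against CKI (0.11, -0.02 to 0.24) was called only without N-Nme replicate 1 (0.18).

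XIAP, the direct caspase inhibitor, had its lowest level with CKI at each time and in each batch. At 48 h it was at 78.5, 75.8 and 64.7 CPM untreated and 49.7, 52.2 and 55.2 with CKI in batch 1, and at 87.9, 82.5 and 93.2 against 63.1, 64.5 and 60.8 in batch 2. The groups were apart, with log2 fold changes of -0.47 ± 0.07 (SE; edgeR adjusted p = 1.78e-05) and -0.47 ± 0.05 (SE; edgeR adjusted p = 2.98e-06). At 24 h the groups were also apart (60.03, 60.9 and 64.4 against 57.5, 51.4 and 45.4 CPM), but -0.26 was not called (95% interval -0.51 to -0.02), except without CKI replicate 1 (-0.35). The mixtures raised XIAP at 48 h. Its log2 fold changes against untreated cells were 0.34 (N-OmtOspc), 0.57 (N-MacOmtOspc, 0.60 without its replicate 2), 0.50 (OmtOspc) and 0.46 (MacOmtOspc) in batch 1. In batch 2 they were 0.61 (N-Mac), 0.79 (N-Nme), 0.61 (N-Omt) and 0.82 (N-Tri). All 8 were called. Of the mixtures at 24 h, N-OmtOspc was called (0.56, or 0.68 without its replicate 3). OmtOspc (0.24) was called without OmtOspc replicate 1 (0.40), and was 0.10, not called, without its replicate 2. Against CKI, N-Tri was 2.45-fold and N-Nme 2.42-fold higher, 1.29 ± 0.04 (SE; edgeR adjusted p = 1.04e-31) and 1.28 ± 0.05 (SE; edgeR adjusted p = 7.69e-14). Reads of XIAP could be shared with its near copy BIRC8, which had 0 counts in all 54 libraries.

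BIRC2 lies beside BIRC3 on chromosome 11 and had a much narrower range. With CKI at 48 h it was at 104, 101 and 101 CPM against 99.7, 85.3 and 86.8 untreated in batch 1, and at 99.7, 104 and 104 against 117, 112 and 119 in batch 2. The groups did not overlap in either batch, yet CKI was above untreated cells in the first and below them in the second. The log2 fold changes were 0.19 ± 0.06 (SE; edgeR adjusted p = 0.0148) and -0.16 ± 0.04 (SE; edgeR adjusted p = 0.00363), and their difference was called, at -0.34 ± 0.08 (SE; edgeR adjusted p = 0.00488). The batch 1 call was lost without untreated replicate 2 (0.15) or untreated replicate 3 (0.16). A fit over both batches left 0.01 (95% interval -0.11 to 0.13), not called. At 24 h 0.20 was called only without CKI replicate 1 (0.18). The lowest level of batch 1 at 48 h came with N-OmtOspc (72.9, 65.3 and 73.6 CPM, -0.36 ± 0.07 SE, edgeR adjusted p = 7.05e-05) and the highest of batch 2 with N-Tri (158, 167 and 168 CPM, 0.50 ± 0.04 SE, edgeR adjusted p = 1.84e-07).

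The windows before the starts of the neighbours BIRC3 (chr11:102317234-102317483, plus strand) and BIRC2 (chr11:102346964-102347213, plus strand) are printed for comparison of their kappa-B matches, and that of XIAP (chrX:123859458-123859707, plus strand) because it had none of the 5 motifs. BIRC3 held GGAAATCCCC 199 bases and GGAGTTCCCC 135 bases before the start, and BIRC2 held GGATAGTCCC 204 bases before it. No match says only that these letters are not in this window.
BIRC3: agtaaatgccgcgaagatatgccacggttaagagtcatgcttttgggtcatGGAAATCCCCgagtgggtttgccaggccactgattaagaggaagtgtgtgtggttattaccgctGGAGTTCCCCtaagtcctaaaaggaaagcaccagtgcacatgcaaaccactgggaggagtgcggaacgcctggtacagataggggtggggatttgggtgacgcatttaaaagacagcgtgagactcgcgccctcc
BIRC2: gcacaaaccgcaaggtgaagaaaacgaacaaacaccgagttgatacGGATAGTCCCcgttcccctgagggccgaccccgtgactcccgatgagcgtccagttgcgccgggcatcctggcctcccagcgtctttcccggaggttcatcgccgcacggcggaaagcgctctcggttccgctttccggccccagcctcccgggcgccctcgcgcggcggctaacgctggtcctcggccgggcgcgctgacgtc
XIAP: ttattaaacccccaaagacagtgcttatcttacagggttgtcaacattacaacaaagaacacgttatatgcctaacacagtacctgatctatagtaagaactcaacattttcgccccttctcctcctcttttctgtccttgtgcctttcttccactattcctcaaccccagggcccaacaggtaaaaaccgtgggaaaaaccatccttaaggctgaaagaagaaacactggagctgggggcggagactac
Of the other windows, that of BAX held 4 E-boxes, that of BCL2L11 a pair of overlapping kappa-B matches, and that of BCL2L1 none of the 5 motifs. A kappa-B match was thus in 4 of the 8 windows, and in 28.1% of all.

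The CKI effect differed between the batches at 48 h for 3 of the 10 genes (background 13.8%), PMAIP1, BIRC2 and BIRC3, each with a lower value in batch 2. For the other 7 the difference ranged from -0.11 to 0.30. BCL2L11 (0.30) was called without batch 2 untreated replicate 2 (0.41). The 48 h effect of batch 1 was called different from the 24 h effect for 0 of 10 genes by edgeR (background 1.56%), with 1 at an unadjusted p under 0.05, and for 0 by DESeq2. Without CKI replicate 1 of 24 h, 2 were called, BCL2L1 (-0.38) and BIRC3 (0.36). The same omission raised the CKI calls at 24 h from 4 to 8 of 10 (background 38.7% with and 53% without it), adding MCL1, BCL2L11, XIAP and BIRC2.

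**Figure D4:**
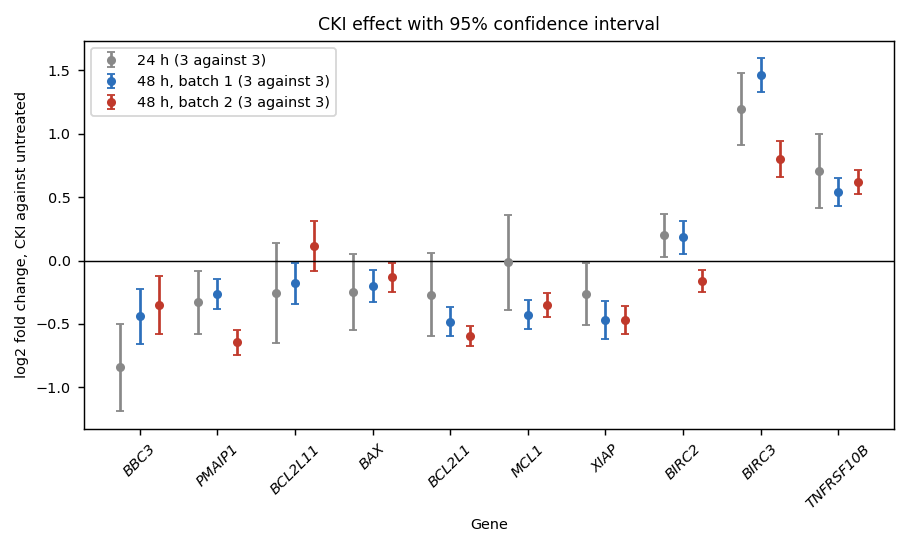
Log2 fold change of the 10 genes in CKI-treated against untreated cells (points) with 95% confidence interval (bars), 3 against 3 libraries each, for 24 h and then for batches 1 and 2 at 48 h. BIRC3 lies at 1.20, 1.46 and 0.80, and for BIRC2 the batches fall on opposite sides of 0.

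Set directly against CKI, the mixtures gave 17 calls in 40 pairs at 24 h (background 23.9%), 31 of 40 at 48 h in batch 1 (65.3%) and 38 of 40 for the single removals in batch 2 (75.8%). N-Mac, N-Omt and N-Tri differed from CKI in all 10 genes (backgrounds 72.8%, 80.5% and 77.1%), although 2 of these calls were lost when 1 library was left out. They were BCL2L11 with N-Mac (-0.18), lost without CKI replicate 1 (-0.15) or N-Mac replicate 1 (-0.13), and BAX with N-Omt (-0.13), lost without N-Omt replicate 2 (-0.08). At 24 h OmtOspc differed from CKI in 1 of 10 genes (background 2.32%). XIAP at 48 h was 0.81 to 1.05 above CKI in batch 1 and 1.09 to 1.29 above it in batch 2.

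**Figure D5:**
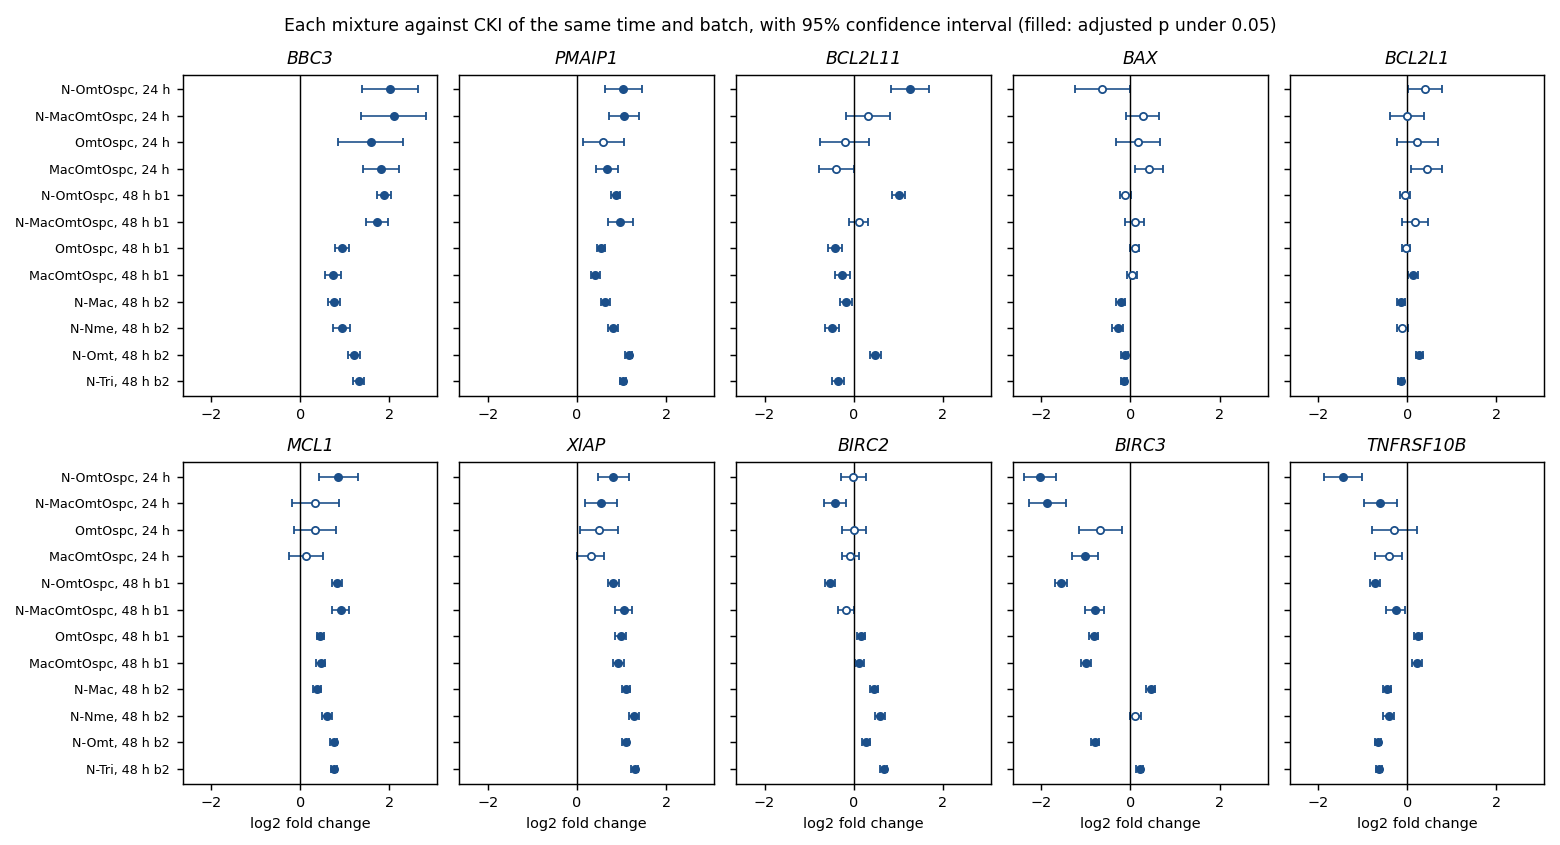
Log2 fold change of each gene in the 12 mixture groups against CKI of the same time and batch (points; filled where edgeR's adjusted p was under 0.05) with 95% confidence intervals; groups in 1 time and batch share their CKI libraries. For BCL2L11 the points to the right at 48 h are N-OmtOspc (1.01) and N-Omt (0.49), and N-MacOmtOspc (0.11) was not called.

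Each single removal was also set against the mean of the other 3. Of 40 such pairs 33 were called (background 47.3%). The 4 contrasts use the same libraries and are not independent. N-Omt differed in 9 of 10 genes (66.9% of all genes), in the directions already given for BCL2L11, BCL2L1 and BIRC3. It was also higher for PMAIP1 (0.33 ± 0.04 SE, edgeR adjusted p = 1.74e-08) and lower for BIRC2 (-0.30 ± 0.04 SE, edgeR adjusted p = 3.89e-07). By group mean N-Mac was lowest of the 4 for BBC3, PMAIP1 and MCL1, with differences from the others of -0.37, -0.34 and -0.30, all called. N-Tri was higher than the mean of the others for BBC3 (0.34) and BIRC2 (0.22), and N-Nme lower for BCL2L11 (-0.47), also called. Those for BIRC2 and BCL2L11 were not particular to 1 removal. For BIRC2 the N-Tri libraries (158 to 168 CPM) overlapped those of N-Nme (144.9 to 166 CPM). For BCL2L11 N-Nme (17.3 to 19.4 CPM) overlapped N-Tri (19.3 to 21.5 CPM). N-Tri was there also lower than the mean of the others, at -0.33 to -0.26 over single omissions.

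Macrozamin was the only named difference within each of 2 pairs of mixtures in batch 1. Added to oxymatrine and oxysophocarpine (MacOmtOspc against OmtOspc), it went with 0 of 10 calls at 24 h by edgeR, where 0% of all genes were called, with 0 at an unadjusted p under 0.05 and 0 by DESeq2. Without OmtOspc replicate 1, BAX (0.48) and BIRC3 (-0.53) were called there. At 48 h it went with 1 call (background 9.72%), BCL2L1 at 0.15, which was lost without OmtOspc replicate 1 (0.16), OmtOspc replicate 2 (0.17), OmtOspc replicate 3 (0.13) or MacOmtOspc replicate 1 (0.15). BBC3 (-0.20) was called without MacOmtOspc replicate 2 (-0.29). Kept in the mixture from which oxymatrine and oxysophocarpine had been removed (N-OmtOspc against N-MacOmtOspc), it went with 5 of 10 calls at 24 h (background 36.7%) and 4 of 10 at 48 h (39.2%). Besides BCL2L11, TNFRSF10B was lower in N-OmtOspc than in N-MacOmtOspc at 24 h (-0.85 ± 0.18 SE, edgeR adjusted p = 0.0086) and at 48 h (-0.46 ± 0.10 SE, edgeR adjusted p = 0.0056). Without N-MacOmtOspc replicate 2 these were -0.73 and -0.52, and without N-OmtOspc replicate 3 the 24 h value was -0.99. BIRC3 was lower at 48 h, at -0.75 ± 0.11 (SE; edgeR adjusted p = 5.08e-04) with and -0.82 without N-MacOmtOspc replicate 2, and so was BIRC2 (-0.35), a call lost without N-OmtOspc replicate 2 (-0.30). Calls at 24 h for BAX (-0.91), BCL2L1 (0.40) and BIRC2 (0.41) were each lost on omission of N-OmtOspc replicate 1 or 2 or N-MacOmtOspc replicate 1 or 3. Over single omissions they ranged from -1.29 to -0.71, from 0.36 to 0.45 and from 0.37 to 0.47. MCL1 at 24 h (0.51) was called without N-MacOmtOspc replicate 2 (0.72). At 48 h the omission of N-MacOmtOspc replicate 2 added BAX (-0.22), PMAIP1 (-0.22) and XIAP (-0.26). Whether the response to macrozamin differed between the 2 backgrounds was not tested.

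The untreated cells themselves differed between batches. At 48 h, 9 of 10 genes were called between batch 2 and batch 1 (background 58.8%). TNFRSF10B was at 222, 211 and 237 against 147, 143 and 144 CPM (0.58 ± 0.06 SE, edgeR adjusted p = 1.83e-06) and BBC3 at 20.1, 16.6 and 23.5 against 24.5, 30.8 and 32.9 CPM (-0.59 ± 0.12 SE, edgeR adjusted p = 0.0011). BIRC3 differed by 0.55, BCL2L1 by -0.46 and BAX by -0.53. The calls of BCL2L11 (0.29) and XIAP (0.22) were lost without single libraries, down to 0.18 for BCL2L11 without batch 2 replicate 2 and 0.15 for XIAP without batch 1 replicate 3. Levels are therefore compared only within a batch. Between 24 and 48 h in batch 1, 3 of 10 were called (background 25.2%), BBC3 (0.34), BIRC3 (0.31) and XIAP (0.23), each lost without at least 1 library: BIRC3 without 24 h replicate 2 (0.31), BBC3 at its lowest 0.25 without 48 h replicate 3, and XIAP 0.18 without 48 h replicate 1.

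Of 72 other apoptosis genes in 5 lists, 62 were tested at 24 h and 63 at 48 h. With CKI, 30 of 62 were called at 24 h, 16 higher and 14 lower, beside 38.7% of all genes. Without CKI replicate 1 they were 37, beside 53%. At 48 h 49 of 63 were called, 27 higher and 22 lower, beside 71.5%. Their median log2 fold changes were 0.02 and -0.01, against 0.01 and 0.00 over all genes.

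In the BCL2 family list, 10 of 12 genes were called at 48 h, 6 higher and 4 lower, where 71.5% of all genes were called, 35.7% higher and 35.8% lower. BCL2, the founding pro-survival member, went from 8.44 ± 1.03 to 4.47 ± 0.495 CPM at 24 h (mean ± SD, n = 3), with log2 fold changes of -0.92 at 24 h and -0.89 at 48 h (edgeR adjusted p = 0.00319 and 2.45e-06). BCL2L2 (BCL-W), another pro-survival gene, fell by 0.60 at 48 h (edgeR adjusted p = 5.92e-08). BNIP3 and BNIP3L, hypoxia-responsive genes known for mitophagy, rose, with 0.95 at 24 h and 0.66 at 48 h (edgeR adjusted p = 3.04e-04 and 6.43e-11) for BNIP3. In the list of IAPs and their antagonists, 4 of 6 were called at 48 h, near that background, with BIRC5 (survivin, a mitotic gene) at -1.43 at 24 h and -1.39 at 48 h (edgeR adjusted p = 6.36e-05 and 7.68e-13). Mean BIRC5 fell from 190.2 ± 5.20 to 70.7 ± 6.72 CPM at 24 h. XAF1, an XIAP-binding protein, fell by 1.55 at 24 h and by 1.32 at 48 h, while the IAP antagonists HTRA2 (0.28) and DIABLO (0.21) rose at 48 h. Without CKI replicate 1 the 24 h values were -0.87 for BCL2, 0.90 for BNIP3, -1.37 for BIRC5 and -1.72 for XAF1.

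Of the death receptors, ligands and adaptors, 11 of 16 were called at 48 h, 7 higher and 4 lower, beside 71.5% of all genes (35.7% higher and 35.8% lower). TNFRSF11B (osteoprotegerin, a soluble decoy for TRAIL) fell, with -2.49 at 24 h and -1.94 at 48 h (edgeR adjusted p = 1.73e-04 and 7.11e-09). TNFRSF10D, a membrane-bound decoy receptor, rose by 0.86, TRAF1 by 0.52, and TNFSF10, the gene of TRAIL itself, was at -1.35 at 24 h and -0.71 at 48 h (edgeR adjusted p = 5.11e-04 and 4.82e-07). For TRAF1 at 48 h, batch 1 alone gave 0.94 (edgeR adjusted p = 6.64e-09). Batch 2 alone gave 0.12, which was not called (edgeR adjusted p = 0.203). Of the caspases and apoptosome genes 7 of 11 were called, also near this background. CASP9, the initiator caspase of the mitochondrial pathway, was at 0.51 and CYCS, which encodes cytochrome c, at -0.33 at 48 h. Among the regulators 17 of 18 were called, 9 higher and 8 lower. TP73, a transcription factor that can induce apoptosis genes, was at -1.14 at 24 h and -1.22 at 48 h (edgeR adjusted p = 0.0131 and 1.51e-08). CDKN1A, the p21 cell cycle inhibitor, rose by 1.04 at 48 h, and MAP3K14, the kinase NIK of the non-canonical NF-kappa-B pathway, by 0.78. Without CKI replicate 1 the 24 h values were -2.29 for TNFRSF11B, -1.19 for TNFSF10 and -0.85 for TP73.

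Which genes had the pattern most like each member was described by Pearson's r over the log2 ratios to untreated cells in the 15 treated groups, among 9782 genes whose mean reached 10 CPM, for the 8 members whose ratios spanned at least 1. The 15 points share untreated libraries within a time and batch, and no test was made. The most alike genes were BEND3 (0.943) and CAMK2N1 (0.938) for BBC3, BEND3 (0.957) and DUSP8 (0.945) for PMAIP1 and SLC29A3 (0.954) and AHCYL1 (0.951) for BCL2L11. For XIAP they were MEX3C (0.954) and RPL5 (0.950), for MCL1 ATG3 (0.929) and SAV1 (0.924), for BAX STK25 (0.957) and RTL8A (0.929), for TNFRSF10B STX5 (0.958) and MIR22HG (0.945) and for BIRC3 SP140L (0.899) and ATL2 (0.895). BEND3 came up for both BBC3 and PMAIP1. A high r does not mean like levels: the ratios of BEND3 ran from -1.24 to 0.36 and those of BBC3 from -0.85 to 1.44. For STX5 and TNFRSF10B the ranges were closer, at -1.01 to 0.70 and -0.76 to 0.78. BBC3 had the widest span of the members, 2.29, closely followed by BIRC3 at 2.29, and BIRC2 the narrowest at 0.86.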

How the data were processed

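RNA of 54 libraries was counted by the authors per gene, and the deposited counts are raw, whole-number reads on 27978 genes. The submitters' processing notes name FastQC 0.11.4, Trim Galore 0.3.7, STAR 2.5.3a, Subread 1.5.2 with featureCounts, edgeR 3.22.3 and hg19, and libraries were poly(A)-selected and strand-specific. The strand setting of the counting is not given in the sources used here. Samples were grouped by the labelled treatment, time and batch.

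After edgeR's filterByExpr and TMM scaling, counts were tested with the quasi-likelihood test of edgeR 4.0.16 (R 4.3.3), only the groups compared entering each fit, with the batch as a term where both batches were used. P-values were adjusted by the Benjamini-Hochberg method over all genes tested, and intervals are 95% without such adjustment. CPM used TMM-adjusted totals. A group of 3 against 3 cannot go below an exact p of 0.1, so single values were not tested apart from the fit. Scripts were tested on simulated counts. The members and lists were chosen with earlier results of these data known. Beside the members, up to 4 genes of each list were named: those called at both times with CKI in the same direction, with the largest change at 48 h. Items among the lists and markers that are withheld are not reported here. A further 2 genes were named for likeness to a member. Alternatives were RLE scaling, library sizes alone, no filter, DESeq2 1.42.0, a shared fit of all libraries, a replicate block, and omission of single libraries or of the 3 unnumbered libraries. No table column was left unused.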

Additional observations from a re-analysis of the deposited data

Results flagged for a closer look

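The effect of CKI at 48 h differed between the batches for 3 members, by a test of the difference itself in edgeR. The log2 fold change of batch 2 minus that of batch 1 was -0.38 for PMAIP1, -0.34 for BIRC2 and -0.66 for BIRC3. Each was lower in batch 2, and BIRC2 had opposite signs in the batches. Batch 2 also differed from batch 1 in its untreated cells, and the part of this in the 3 results was not tested.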

How the results depend on the processing

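Over the 400 pairs of member and comparison, no called direction turned under RLE scaling, library sizes alone, no filter, DESeq2, a shared fit of all libraries or the replicate block. Calls were gained and lost in 5 and 2 pairs (RLE), 15 and 18 (library sizes alone), 6 and 7 (no filter), 11 and 2 (DESeq2) and 13 and 17 (shared fit). Library sizes alone moved the median of all genes by over 0.1 in 5 comparisons, all with N-OmtOspc or N-MacOmtOspc, by up to -0.344 in N-OmtOspc against CKI at 24 h. In N-OmtOspc against untreated cells at 24 h the shift was -0.301. The sizes of the N-OmtOspc values at 24 h thus depend on the scaling. The CKI value of BIRC2 at 48 h, 0.01 over both batches, was -0.16 and called in batch 2 alone. The count of CKI calls at 24 h, 4 of 10, was 2 in the shared fit and 8 without the 3 unnumbered libraries. The count for the time difference, 0, was 2 without them, and over the 100 pairs that include them 19 calls were gained and 0 lost.

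With single libraries left out, calls against untreated cells were 18 to 26 of 50 at 24 h, 37 to 43 (48 h, batch 1) and 37 to 42 (batch 2). For CKI they were 3 to 8 at 24 h and 0 to 2 for the time difference, with both highest counts reached without CKI replicate 1 of 24 h. Against CKI they were 13 to 20, 28 to 32 and 37 to 40 of 40.

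Same-numbered replicates did not deviate together throughout a comparison. In 0 of 33 comparisons did all 3 correlations exceed 0.1, and in 1 of 33 did every sample correlate best with its own number. Single correlations ran from -0.563 (replicate 1 of OmtOspc and CKI, 24 h) to 0.335 (replicate 1 of MacOmtOspc and OmtOspc, 24 h), so a pairing of some libraries is not excluded. A fit with the replicate number as a block gained 14 calls and lost 15 over the 400 pairs. It gave BIRC3 with CKI at 24 h a log2 fold change of 1.19. The lowest count of a member in any library was 204 reads.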
